A study of Mus musculus with 16 samples.

Results

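Muscle RNA of HDAC3 knockout mice was compared with that of wild-type mice after treadmill running. The members are the genes that reached a mean of 1 FPKM or more in either genotype after running. FPKM scales the fragments of a gene by its transcript length and by the size of its library. By this rule 10703 of 24354 listed genes were members. The names of 15 of them had been turned into dates by a spreadsheet, and those were left out, which left 10688 genes. Of these, 282 reached 1 FPKM only in the wild-type mean and 427 only in the knockout mean. Just outside the rule lay 230 genes whose higher mean was between 0.9 and 1 FPKM (median 0.947), and just inside it 207 genes between 1 and 1.1 FPKM (median 1.045).

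RNA came from the quadriceps muscle of male mice aged 4 months, of the strain background given as C57B/6, on normal chow and a normal light and dark schedule. Mice were wild type or HDAC3 knockout. All mice compared here had run for 3 bouts of 1 h at 10 m/min with 1 h of rest between bouts, and the tissue was harvested 2 h after they finished the last of these. Each genotype had 3 libraries, and resting mice of both genotypes, also with 3 libraries each, served for comparison. The sources used here do not name the cells in which HDAC3 was deleted or the driver of the deletion, and they do not say whether each library is another animal. The p-values therefore measure the spread between these libraries, which may be technical.

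HDAC3 is a histone deacetylase that works inside corepressor complexes with NCoR and SMRT. These complexes are brought to chromatin by nuclear receptors such as REV-ERB, and they keep target genes quiet. In skeletal muscle HDAC3 is known for setting the choice between fuels, with links to branched-chain amino acid breakdown, the purine nucleotide cycle and the daily clock.

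The libraries of 1 genotype resembled each other slightly more than those of different genotypes. Pearson correlations of log2 values were 0.959 to 0.965 within genotypes and 0.945 to 0.959 between them. Deposited FPKM values of 7112 members (66.5%) were whole multiples of a common step in all 6 libraries, which gave their read numbers to within 0.03 reads. These read numbers are the smallest that fit, so the true ones could be a multiple of them. Over those genes the libraries held 743874 to 1120811 reads, with wild-type library 2 the deepest. A member of 1 to 2 FPKM had a median of 17 reads per library, and one of 10 to 30 FPKM had 153 reads. Knockout library 3 stood apart in neutrophil markers: the 8 markers summed to 367.3 FPKM there, against 2.64 to 14.0 FPKM in the other 5 libraries. The number of calls, the called genes that are named, the ATF4, fatty acid synthesis, fast fibre and macrophage lists and the comparison with rest are given with and without it.

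The labelled tissue was checked by its markers, and muscle fibre genes were abundant in every library. The 12 markers summed to 95880, 102700 and 85450 FPKM in wild type and to 77460, 74680 and 86550 FPKM in knockout, and none was at 0. Of all markers of the other cell types searched for, none was at 0 in all 6 libraries, though several neutrophil markers were at 0 in most of them. Markers of several other cell types were above 0 in every library, so the samples held whole tissue with several cell types. In such samples fewer cells of a type and less RNA per cell cannot be told apart.

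Hdac3, the targeted gene, separated the genotypes in each library. It stood at 31.0, 32.0 and 27.6 in wild type and at 5.32, 6.37 and 4.13 FPKM in knockout. All 3 knockout libraries lay far below the wild-type range, yet none was at 0 (log2 difference -2.33, SE 0.16, limma adjusted p = 0.00157). In reads this was 253, 383 and 224 reads in wild type and 54, 51 and 38 reads in knockout. FPKM covers the whole gene, so a deleted exon cannot be seen in these values. Hdac3 passed in all 6 fits that each left out 1 library.

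None of the partners of HDAC3 in its complexes passed the test. Of 8 genes in the list of HDAC3, its corepressors and REV-ERB, Hdac3 alone passed. An unadjusted limma p under 0.05 was seen in 3 of the 8, Hdac3 included, and in 2006 of all 10688 genes. Without overlap, 2 of the 8 lay higher in knockout, as did 12.2% of all genes, and the highest difference was 0.55. Ncor1, the NCoR corepressor itself, stood at 19.4, 19 and 23.3 in wild type and at 25.8, 23.6 and 21.4 FPKM in knockout, and the groups overlapped (log2 difference 0.19, limma adjusted p = 0.467). Nr1d2, which encodes REV-ERB beta, stood at 49.8, 59.4 and 60.8 in wild type and at 54.1, 55.1 and 43.6 FPKM in knockout and also overlapped (log2 difference -0.15, limma adjusted p = 0.592).

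Across all 10688 genes, 290 passed limma at an adjusted p at or under 0.05, which is 2.71%. The test is limma on log2(FPKM + 1) with Benjamini-Hochberg adjustment over all members, and "rose" and "fell" below mean higher or lower in knockout past this threshold. An unadjusted limma p under 0.05 was seen in 2006 of the 10688 genes. Of the 290 genes, 130 rose (1.22%) and 160 fell (1.5%), and the counts within the lists below can be read beside these shares. Among the 290, 15 had a wild-type mean under 1 FPKM and 10 a knockout mean under 1 FPKM, so that they were members only through the genotype in which they were high. Values are listed in the order of libraries 1 to 3, and values with ± are means and SDs (n = 3 per genotype). Differences are on the log2(FPKM + 1) scale throughout, which understates the change of genes at low levels. The median size of the called differences was 0.88, and 55 genes rose and 58 fell by 1 or more. In every called gene the wild-type and knockout libraries did not overlap, as was the case for 24.9% of all genes. The authors' deposited table gave a q at or under 0.05 to 261 of the 290 and to 865 of all 10688 genes (8.09%).

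**Figure D1:**
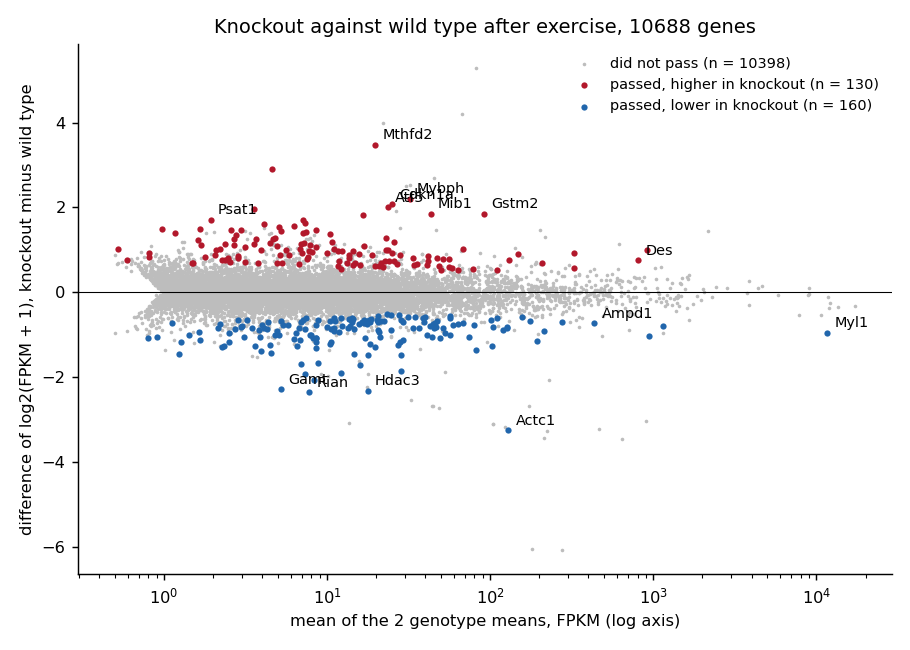
Each point is 1 of 10688 genes, with the mean of the 2 genotype means in FPKM on a log axis against the difference of log2(FPKM + 1), knockout minus wild type. Genes that passed limma (130 red, higher; 160 blue, lower) lie at all levels from about 1 FPKM to the highly expressed Myl1, and large differences in grey are mostly short RNAs read in few libraries.

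The number of calls depended on having all 6 libraries. Leaving out 1 library gave between 44 and 58 calls, with fewer samples in the fit. The count was 48, 44 and 49 when wild-type library 1, 2 or 3 was dropped, and 58, 47 and 51 when knockout library 1, 2 or 3 was dropped. Without knockout library 3, 18 genes were higher and 33 lower, and 47 of these 51 were among the 290. The direction held in each of these fits for all 290 genes. That was fixed in advance, because the libraries of these genes did not overlap between genotypes. In all 6 of the fits 27 genes passed. The 27 were Mthfd2, Srrm4os, Hdac3, Atf5, Ccdc136, S100a1, Cd55, Gstm2, A330074K22Rik, Ppp1r14b, Slc38a4, Setd8, Abtb2, Fbp2, Zfp367, Lgmn, Psat1, Mib1, Tlcd2, Gamt, Hemk1, Slc15a5, Hacd1, Actr3b, Ociad2, Kcnf1 and Apol6.

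Mthfd2 had the largest rise of any named gene. It encodes a mitochondrial enzyme of folate metabolism that is low in most adult tissues. It stood at 2.13, 2.17 and 2.85 in wild type and at 33.0, 41.1 and 36.5 FPKM in knockout. The 3 knockout libraries lay close together and more than 10 times above every wild-type library (log2 difference 3.48, SE 0.14, limma adjusted p = 9.5e-05). The reads behind these values were 18, 27 and 24 reads in wild type and 347, 341 and 348 reads in knockout. Beside it, the sequence before its start is shown, because this gene had the largest rise that passed.
Mthfd2, chr6:83317605-83317854 (minus strand): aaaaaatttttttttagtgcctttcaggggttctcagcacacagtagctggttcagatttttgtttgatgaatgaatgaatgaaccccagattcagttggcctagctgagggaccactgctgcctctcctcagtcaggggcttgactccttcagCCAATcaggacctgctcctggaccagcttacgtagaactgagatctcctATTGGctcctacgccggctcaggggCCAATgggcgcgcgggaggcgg
These 250 bases end right before the start of the gene in RefSeq (GRCm38.p6), read 5′ to 3′, and capitals mark the matches to the CCAAT box. The 3 matches to CCAAT, searched on both strands, lie at positions -96 to -92, -47 to -43 (minus strand) and -22 to -18 from the start. This motif was chosen after the sequence was seen.

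Promoters were searched for 7 further motifs, both strands, in windows of 300 bases (250 before and 50 from the start on). RefSeq gave such windows for 8192 of the 10688 members, 107 of the 130 that rose and 125 of the 160 that fell. Shares below are of promoters, first for genes that rose (149 promoters), then for genes that fell (180), for all members (10512) and for all 32851 promoters in the table. The core of the CEBP-ATF element (TGATGNAA), which ATF4 is known to bind, was in 3.4%, 2.2%, 2.2% and 4.0%, and it was in 5 promoters of genes that rose. It was not in the window of Mthfd2, Atf5 or Psat1. AGGTCA, a short site that ROR and REV-ERB share with other nuclear receptors, was in 16.1%, 11.1%, 12.5% and 16.3%. The E-box (CACGTG) was in 6.7%, 8.3%, 10.2% and 7.2%, the antioxidant element (TGACNNNGC) in 13.4%, 17.2%, 14.7% and 12.4%, and the AP-1 site (TGANTCA) in 8.1%, 5.0%, 5.0% and 7.8%. The D-box (TTANGTAA) was in 0.7%, 2.8%, 1.5% and 2.3%, and the cyclic AMP element (TGACGTCA) in 2.0%, 2.8%, 3.2% and 1.8%. CCAAT was in 45.6%, 35.6%, 37.3% and 37.4%. These shares were not tested, and a match is a description of the letters and not a binding site.

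Of the other genes on the list of the ATF4 response, Atf5, Psat1 and Slc7a5 rose with Mthfd2. ATF4 is the transcription factor of the integrated stress response, which cells switch on when amino acids are short or mitochondria are disturbed. Of 27 tested genes on its list, 4 rose and 0 fell, where 1.22% and 1.5% of all genes did. Psat1 and Slc7a5, which are among the 4, were members only through their knockout mean. Of the 22 genes with 1 FPKM or more in both genotypes, 2 rose and 0 fell, with a median difference of 0.41, where 1.15% and 1.5% of such genes did. The list's median difference was 0.45, against 0.004 over all genes, and it was 0.52, 0.30 and 0.41 in knockout libraries 1, 2 and 3 taken singly. Without overlap, 15 of the 27 lay higher in knockout, as did 12.2% of all genes. Without knockout library 3 these were 16 of 27 and 17.9%, the median was 0.46, and 3 genes rose.

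Atf5, a transcription factor downstream of ATF4, stood at 7.65, 10.6 and 8.41 in wild type and at 39.9, 35.6 and 39.6 FPKM in knockout. The 3 knockout values lay within a narrow band well above wild type (log2 difference 2.00, SE 0.14, limma adjusted p = 0.0016). Psat1, an enzyme of serine synthesis, stood at 0.224, 0.534 and 0.338 in wild type and at 4.05, 3.54 and 2.88 FPKM in knockout. Every wild-type library was under 1 FPKM, and every knockout library was above 2 FPKM (log2 difference 1.72, SE 0.17, limma adjusted p = 0.00518). The reads of Psat1 were 2, 7 and 3 reads in wild type and 45, 31 and 29 reads in knockout. Slc7a5, which imports large neutral amino acids, stood at 0.666, 0.362 and 0.134 in wild type and at 3.85, 2.51 and 2.42 FPKM in knockout (log2 difference 1.5, SE 0.21, limma adjusted p = 0.0188). Mthfd2, Atf5 and Psat1 passed in all 6 fits that each left out 1 library. Slc7a5 passed only without wild-type library 1, and its limma adjusted p was 0.0571 to 0.08 in the other 5 such fits. The other 23 genes of the list did not pass, Atf4 itself among them.

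Genes for protein folding in the endoplasmic reticulum form a neighbouring list. Of its 20 genes, 2 rose and 0 fell, where 1.22% and 1.5% of all genes did, and the median difference was 0.32. Atf6, a sensor of unfolded protein in the reticulum, stood at 9.52, 9.05 and 11.1 in wild type and at 17.5, 15.3 and 16.6 FPKM in knockout, with every knockout library above wild type (log2 difference 0.69, limma adjusted p = 0.0358). Sdf2l1, a partner of reticulum chaperones, stood at 2.21, 1.84 and 0.988 in wild type and at 3.95, 4.26 and 5.44 FPKM in knockout, again without overlap (log2 difference 1.07, limma adjusted p = 0.0442). Atf6 and Sdf2l1 missed 0.05 in each of the 6 fits without 1 library, with limma adjusted p from 0.0669 to 0.131.

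The other large rises were in genes of varied function. Cdkn1a, the gene of p21, which stops the cell cycle, stood at 17.1, 7.13 and 5.20 in wild type and at 46.6, 33.6 and 40.0 FPKM in knockout. Wild-type library 1 was the highest of its group, and all knockout libraries were above it (log2 difference 2.07, SE 0.36, limma adjusted p = 0.0335). Mybph, a myosin-binding protein, stood at 12.1, 17.6 and 5.19 in wild type and at 52.3, 43.8 and 61.4 FPKM in knockout, with a wild-type range that did not reach the knockout one (log2 difference 2.21, SE 0.36, limma adjusted p = 0.0278). Gstm2, a glutathione transferase, stood at 38.8, 39.8 and 37.4 in wild type and at 117, 171 and 143 FPKM in knockout. Its wild-type libraries were nearly level, and all knockout libraries were far above them (log2 difference 1.85, SE 0.15, limma adjusted p = 0.00188). Gstm1, a close copy next to it whose reads the counting could have shared, stood at 59.8, 66.2 and 65.2 in wild type and at 70.2, 86.2 and 70.6 FPKM in knockout and did not pass (log2 difference 0.24, limma adjusted p = 0.331). Gstm2 passed in all 6 fits that each left out 1 library. Cdkn1a passed only without wild-type library 1, and its limma adjusted p was 0.0873 to 0.13 in the other 5 such fits. Mybph passed only without wild-type library 2 or 3, and its limma adjusted p was 0.0688 to 0.096 in the other 4 such fits.

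Mib1, a ubiquitin ligase of Notch ligands, stood at 17.4, 14.2 and 23.6 in wild type and at 62.4, 77.9 and 63.6 FPKM in knockout (log2 difference 1.85, SE 0.19, limma adjusted p = 0.0056). Aebp1, a protein of the extracellular matrix, stood at 5.24, 6.74 and 7.55 in wild type and at 39.1, 18.3 and 22.8 FPKM in knockout, with knockout library 1 above the other two (log2 difference 1.83, SE 0.26, limma adjusted p = 0.02). Ccdc136 stood at 3.01, 2.85 and 2.65 in wild type and at 10.1, 11.7 and 12.5 FPKM in knockout. Both genotypes were tight for this gene, and they lay far apart (log2 difference 1.69, SE 0.13, limma adjusted p = 0.00188). Tlcd2, a membrane protein, stood at 1.19, 1.48 and 1.82 in wild type and at 5.51, 7.48 and 7.08 FPKM in knockout (log2 difference 1.62, SE 0.16, limma adjusted p = 0.0056). Gng2, a subunit of heterotrimeric G proteins, stood at 1.86, 2.58 and 3.55 in wild type and at 7.41, 10.3 and 11.7 FPKM in knockout (log2 difference 1.57, SE 0.22, limma adjusted p = 0.0187). Slc43a2, another carrier of neutral amino acids, stood at 2.37, 2.89 and 1.16 in wild type and at 10.7, 6.70 and 6.79 FPKM in knockout, and no library crossed into the other genotype's range in these genes (log2 difference 1.54, SE 0.26, limma adjusted p = 0.029). Mib1, Ccdc136 and Tlcd2 passed in all 6 fits that each left out 1 library. Aebp1 passed only without knockout library 1 or 2, and its limma adjusted p was 0.0613 to 0.08 in the other 4 such fits. Gng2 passed only without wild-type library 3 or knockout library 1, and its limma adjusted p was 0.0532 to 0.08 in the other 4 such fits. Slc43a2 missed 0.05 in each of the 6 fits without 1 library (limma adjusted p 0.0714 to 0.0844).

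Actc1, the cardiac form of alpha actin that adult skeletal muscle keeps low, had the largest fall. It stood at 312, 328 and 70.8 in wild type and at 31.4, 14.9 and 15.6 FPKM in knockout. Wild-type library 3 was well below the other wild-type libraries, and all knockout libraries were below it in turn (log2 difference -3.25, SE 0.57, limma adjusted p = 0.0351). Acta1, the skeletal form with a near-identical coding sequence, stood at 13846, 16726 and 8989.9 in wild type and at 11053, 8590.0 and 13115 FPKM in knockout with overlap (log2 difference -0.25, limma adjusted p = 0.652). The 2 genes could have shared reads, so the level of Actc1 is uncertain. Actc1 passed only without wild-type library 3, and its limma adjusted p was 0.0697 to 0.126 in the other 5 such fits. Its promoter is shown because this is the largest fall that passed.
Actc1, chr2:114052876-114053125 (minus strand): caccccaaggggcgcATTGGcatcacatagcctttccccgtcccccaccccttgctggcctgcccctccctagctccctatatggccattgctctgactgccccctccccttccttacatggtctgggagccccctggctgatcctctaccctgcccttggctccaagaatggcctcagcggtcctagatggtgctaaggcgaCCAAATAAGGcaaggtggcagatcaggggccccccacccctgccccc
The window is the same 250 bases before the start as for Mthfd2 (RefSeq, GRCm38.p6), and capitals mark a CCAAT box (positions -235 to -231, minus strand) and a CArG box (-47 to -38). The CArG box is the site that serum response factor is known to bind in muscle genes, and it too was chosen after the sequence was seen. A CArG box was in 1.6% of all promoters, in 1.4% of those of members, in 3.3% of those of genes that fell and in 1.3% of those that rose.

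Genes of creatine synthesis, glycogen and amino acid transport were among the other large falls. Gamt, the enzyme that completes creatine synthesis, stood at 7.23, 8.81 and 11.8 in wild type and at 1.69, 0.613 and 1.07 FPKM in knockout. The highest knockout library was far under the lowest wild-type one (log2 difference -2.28, SE 0.23, limma adjusted p = 0.00577). Stbd1, which tethers glycogen for uptake by lysosomes, stood at 17.7, 25.5 and 31.9 in wild type and at 6.27, 7.84 and 6.26 FPKM in knockout, with no overlap (log2 difference -1.71, SE 0.21, limma adjusted p = 0.0126). Slc38a4, a transporter of small neutral amino acids, stood at 39.1, 41.3 and 45.7 in wild type and at 12.9, 15.0 and 15.7 FPKM in knockout. Its libraries were tight in each genotype (log2 difference -1.47, SE 0.12, limma adjusted p = 0.00215). Gamt and Slc38a4 passed in all 6 fits that each left out 1 library. Stbd1 passed only without wild-type library 1 or 3 or knockout library 2, and its limma adjusted p was 0.0528 to 0.0646 in the other 3 such fits.

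Rian is a long noncoding RNA from an imprinted cluster. It stood at 10.3, 21.9 and 9.32 in wild type and at 1.41, 2.26 and 1.5 FPKM in knockout, and wild-type library 2 was the highest (log2 difference -2.36, SE 0.30, limma adjusted p = 0.0145). Ociad2, a mitochondrial membrane protein, stood at 26.8, 18.8 and 14.2 in wild type and at 4.38, 4.68 and 4.29 FPKM in knockout (log2 difference -1.90, SE 0.21, limma adjusted p = 0.00799). Ppp1r14b, an inhibitor of protein phosphatase 1, stood at 40.5, 53 and 41.3 in wild type and at 10.3, 11.4 and 13.3 FPKM in knockout. In Ociad2 and Ppp1r14b the knockout libraries clustered below the wild-type ones (for Ppp1r14b, log2 difference -1.86, SE 0.15, limma adjusted p = 0.00188). Actr3b, a form of actin-related protein 3, stood at 10.0, 10.4 and 12.7 in wild type and at 2.04, 2.47 and 3.69 FPKM in knockout (log2 difference -1.70, SE 0.19, limma adjusted p = 0.00778). Fibin stood at 11.4, 13.8 and 15.7 in wild type and at 2.00, 3.86 and 5.66 FPKM in knockout (log2 difference -1.66, SE 0.28, limma adjusted p = 0.029). Cd55, which protects cells from complement, stood at 27.9, 24.0 and 27.7 in wild type and at 9.08, 9.10 and 8.25 FPKM in knockout, where each group was tight (log2 difference -1.49, SE 0.12, limma adjusted p = 0.00188). Ociad2, Ppp1r14b, Actr3b and Cd55 passed in all 6 fits that each left out 1 library. Rian passed only without wild-type library 1, 2 or 3, and its limma adjusted p was 0.0513 to 0.063 in the other 3 such fits. Fibin passed only without knockout library 3, and its limma adjusted p was 0.0527 to 0.115 in the other 5 such fits.

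**Figure D2:**
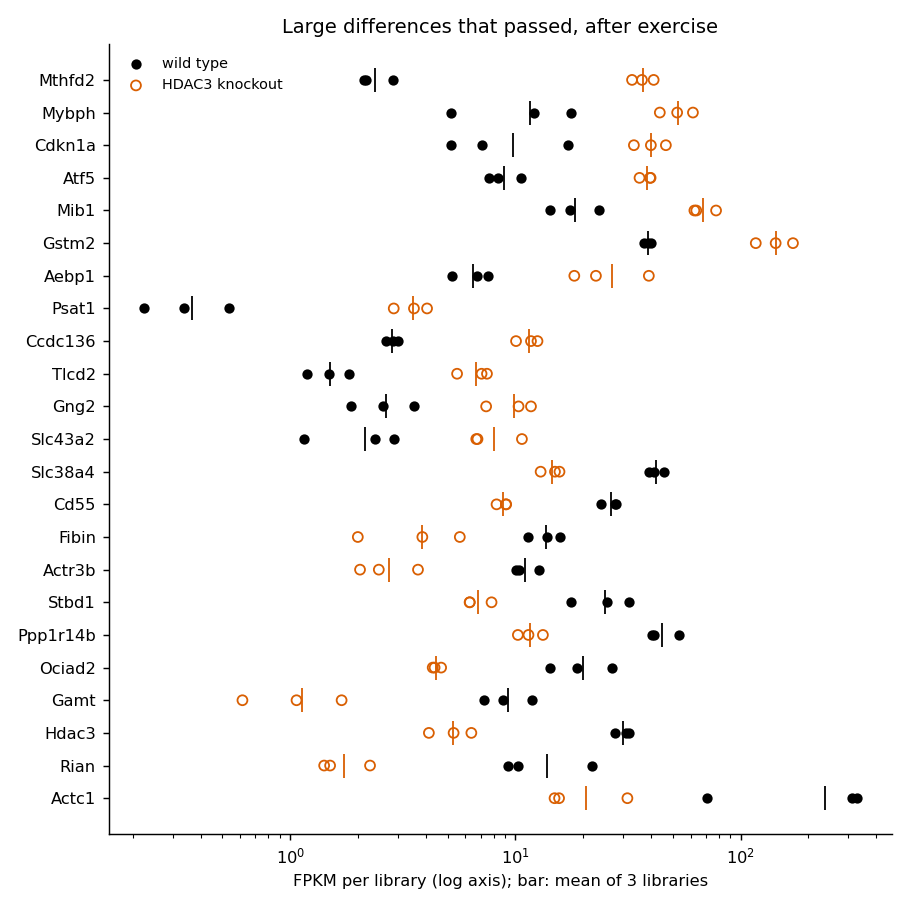
FPKM of each library on a log axis for the genes described above with the largest rises and falls; filled points are wild type, open points knockout, and bars the mean of 3 libraries. No knockout library crosses the wild-type range in these genes, and the widest spread within a group is that of wild-type Actc1, from 70.8 to 328 FPKM.

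In branched-chain amino acid breakdown, which HDAC3 is known to restrain in muscle, 1 gene passed. Of the 23 genes tested, 7 had an unadjusted limma p under 0.05, as did 2006 of all 10688 genes. Without overlap, 4 lay higher in knockout and 4 lower, where 12.2% and 12.7% of all genes did. Of 23 genes on the list, 1 rose and 0 fell, with a median difference of -0.03 (0.003 after quantile normalization, so its sign depends on the scaling). Pcca, a subunit of propionyl-CoA carboxylase late in this path, stood at 7.91, 11.3 and 11.8 in wild type and at 30.4, 21.2 and 18.6 FPKM in knockout, and each knockout library was above wild type (log2 difference 1.09, limma adjusted p = 0.0442). Dld stood at 126, 129.8 and 131 in wild type and at 166, 120.3 and 106 FPKM in knockout and Acat1 at 109, 95.4 and 101 in wild type and at 93.4, 102 and 94.0 FPKM in knockout, the most abundant genes of the list, and neither passed (log2 differences -0.00 and -0.08). Pcca missed 0.05 in each of the 6 fits without 1 library (limma adjusted p 0.0822 to 0.13).

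In the purine nucleotide cycle, which links AMP removal to ammonia in working muscle, 2 of 10 tested genes fell and 0 rose (list median -0.10). Among all genes 1.5% fell and 1.22% rose, and differences on the list ran from -1.01 to 1.02. Ampd1, the muscle AMP deaminase, stood at 585, 517 and 522 in wild type and at 354, 334 and 290.2 FPKM in knockout. Every knockout library was below every wild-type one (log2 difference -0.73, limma adjusted p = 0.0277). Nt5c1a, a nucleotidase that also removes AMP, stood at 12.6, 10.1 and 10.2 in wild type and at 3.97, 4.53 and 6.57 FPKM in knockout, again without overlap (log2 difference -1.01, limma adjusted p = 0.0365). Nt5c1a passed only without knockout library 3, and its limma adjusted p was 0.094 to 0.117 in the other 5 such fits. Ampd1 missed 0.05 in each of the 6 fits without 1 library (limma adjusted p 0.0563 to 0.0972).

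Glutamine, glutamate and transaminase genes did not pass in either direction (8 tested, median -0.08). Got1, the cytosolic aspartate transaminase, measured 343 ± 51.4 (wild type) and 443 ± 26.3 FPKM (knockout) (log2 difference 0.38, limma adjusted p = 0.18). Glul, glutamine synthetase, measured 358 ± 63.8 (wild type) and 415 ± 137 FPKM (knockout) (log2 difference 0.17, limma adjusted p = 0.752). Among 11 amino acid transporters tested, 1 rose (Slc7a5) and 1 fell (Slc38a4), both described above, and the median was 0.01 (-0.12 without knockout library 3). Of 11 genes of polyamine metabolism, 2 fell and 0 rose, where 1.5% and 1.22% of all genes did. The median of this list was 0.00 (0.06 after quantile normalization and 0.30 without knockout library 3). Sms, which makes spermine, stood at 67.7, 59.6 and 70.6 in wild type and at 43.1, 36.1 and 30.8 FPKM in knockout (log2 difference -0.84, limma adjusted p = 0.0334). Smox, which oxidises spermine, stood at 91.1, 117 and 91.5 in wild type and at 39.0, 40.9 and 65.1 FPKM in knockout (log2 difference -1.06, limma adjusted p = 0.0444). Both lay lower in all 3 knockout libraries. Sms passed only without knockout library 1, and its limma adjusted p was 0.0822 to 0.102 in the other 5 such fits. Smox passed only without knockout library 3, and its limma adjusted p was 0.0972 to 0.149 in the other 5 such fits. In creatine metabolism 1 of 6 genes fell, Gamt, and the creatine kinases Ckm and Ckmt2 had log2 differences of -0.54 and -0.08 that did not pass.

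In the control of pyruvate entry into mitochondria 1 of 12 tested genes passed. An unadjusted limma p under 0.05 was seen in 5 of the 12 and in 2006 of all 10688 genes. Pdk1, a kinase that switches off pyruvate dehydrogenase, stood at 20.7, 23.1 and 23.1 in wild type and at 12.1, 12.5 and 14.1 FPKM in knockout, and every knockout library was lower (log2 difference -0.75, limma adjusted p = 0.026). Pdk4, the kinase known to respond to fasting and exercise, stood at 1229.6, 438 and 236 in wild type and at 966, 617 and 376 FPKM in knockout. Its libraries spread widely in both genotypes and overlapped (log2 difference 0.27, limma adjusted p = 0.843). Mpc1, a subunit of the pyruvate carrier, measured 657 ± 25.5 (wild type) and 782 ± 48.7 FPKM (knockout) (log2 difference 0.25, limma adjusted p = 0.256). The list's median was -0.03, and 0.03 after quantile normalization. Pdk1 missed 0.05 in each of the 6 fits without 1 library (limma adjusted p 0.0573 to 0.1).

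In the tricarboxylic acid cycle 1 of 22 genes rose and 0 fell (median 0.03). An unadjusted limma p under 0.05 was seen in 10 of the 22. Without overlap, 6 lay higher in knockout and 5 lower, where 12.2% and 12.7% of all genes did. Idh2, the mitochondrial isocitrate dehydrogenase that makes NADPH, stood at 104, 108 and 80.0 in wild type and at 161, 145 and 187 FPKM in knockout, without overlap (log2 difference 0.76, limma adjusted p = 0.0472). Mdh1, among the most abundant genes of the list, had a log2 difference of -0.06 and did not pass. Idh2 missed 0.05 in each of the 6 fits without 1 library (limma adjusted p 0.0973 to 0.12). None of 43 genes of the respiratory chain and ATP synthase passed, and the median was -0.11. It was -0.16, -0.12 and 0.0 in knockout libraries 1, 2 and 3. Without overlap, 12 of the 43 lay lower in knockout and 1 higher, where 12.7% and 12.2% of all genes did. Of the 43, 10 had an unadjusted limma p under 0.05, as did 2006 of all 10688 genes. Atp5b, the catalytic subunit of ATP synthase, measured 1968 ± 84.0 (wild type) and 2074 ± 83.5 FPKM (knockout) (log2 difference 0.08, limma adjusted p = 0.752), and Cox7a1 measured 1901 ± 90.1 (wild type) and 1581 ± 106 FPKM (knockout) (log2 difference -0.27, limma adjusted p = 0.249).

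No gene on the 4 lists of fat metabolism passed limma. They hold 18 genes of beta-oxidation (median 0.02), 17 of fatty acid uptake and activation (0.12), 19 of triglyceride storage and lipolysis (0.03) and 15 of fatty acid and sterol synthesis (0.44). At an unadjusted limma p under 0.05 these lists held 3, 2, 4 and 9 genes, where 2006 of all 10688 genes had such a p. Hadhb and Acadvl, enzymes of beta-oxidation, had log2 differences of 0.27 and -0.09. Fabp3, the fatty acid binding protein of muscle, stood at 1012, 895 and 560.4 in wild type and at 1683, 999.9 and 980.2 FPKM in knockout, and the groups overlapped (log2 difference 0.57, limma adjusted p = 0.319). Fabp4 differed by 0.06, Plin4 by -0.14 and Lpin1 by 0.20 on the log2 scale. In the synthesis list 8 of 15 genes lay higher in all knockout libraries, beside 12.2% of all genes (8 of 15 beside 17.9% without knockout library 3, with a median of 0.33). Fdft1, which commits sterol synthesis to cholesterol, was among the most abundant and stood at 17.5, 18.3 and 19.2 in wild type and at 20.7, 22.3 and 25.3 FPKM in knockout (log2 difference 0.29, limma adjusted p = 0.235). Scd1, a fatty acid desaturase, stood at 12.3, 16.6 and 18.2 in wild type and at 11.1, 43.0 and 23.5 FPKM in knockout, with knockout library 1 below the wild-type range and the other two above it (log2 difference 0.51, limma adjusted p = 0.548). Hacd1, on none of these lists and chosen after its values were seen, encodes a dehydratase of very-long-chain fatty acid synthesis. It stood at 56.9, 57.9 and 64.0 in wild type and at 26.6, 30.9 and 27.0 FPKM in knockout and fell (log2 difference -1.06, limma adjusted p = 0.00692). Hacd1 passed in all 6 fits that each left out 1 library.

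Of 21 glycolytic genes 1 rose and 2 fell (median -0.02), where 1.22% and 1.5% of all genes did. All 3 act at the step between fructose phosphates. Fbp2, the muscle form of fructose-bisphosphatase, stood at 40.1, 37.4 and 37.6 in wild type and at 15.2, 17.6 and 14.4 FPKM in knockout. Its libraries were tight and the genotypes far apart (log2 difference -1.24, limma adjusted p = 0.00431). Of the enzymes that set fructose-2,6-bisphosphate, Pfkfb3 stood at 5.13, 8.12 and 6.81 in wild type and at 2.50, 3.58 and 2.41 FPKM in knockout and fell (log2 difference -1.0, limma adjusted p = 0.0432). Pfkfb4 stood at 31.4, 28.3 and 33.0 in wild type and at 53.8, 42.5 and 60.2 FPKM in knockout and rose (log2 difference 0.73, limma adjusted p = 0.0472). Fbp2 passed in all 6 fits that each left out 1 library. Pfkfb3 and Pfkfb4 missed 0.05 in each of the 6 fits without 1 library, with limma adjusted p from 0.0533 to 0.161. In glycogen metabolism Stbd1 alone fell among 15 genes (median 0.00, and -0.01 after quantile normalization). Glycogen phosphorylase, Pygm, differed by 0.00, and Ppp1r3c, which brings phosphatase to glycogen, stood at 840.4, 961 and 1426 in wild type and at 1064, 1207 and 1726 FPKM in knockout with overlap (log2 difference 0.31, limma adjusted p = 0.525).

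In insulin signalling 2 of 19 genes fell and 0 rose (median 0.27), where 1.5% and 1.22% of all genes did. Without overlap, 6 of the 19 lay higher in knockout and 2 lower, where 12.2% and 12.7% of all genes did. Irs1, a docking protein for the insulin receptor, stood at 28.5, 24.8 and 29.4 in wild type and at 17.2, 17.8 and 15.3 FPKM in knockout (log2 difference -0.68, limma adjusted p = 0.0342). Grb14, which binds and inhibits that receptor, stood at 8.80, 10.9 and 6.94 in wild type and at 3.93, 2.43 and 4.67 FPKM in knockout (log2 difference -1.09, limma adjusted p = 0.049). Neither gene had a knockout library within the wild-type range. Irs1 and Grb14 missed 0.05 in each of the 6 fits without 1 library, with limma adjusted p from 0.0797 to 0.163.

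Among 18 regulators and targets linked to training, 2 rose and 0 fell (median 0.18), where 1.22% and 1.5% of all genes did. Esrrg, a nuclear receptor of oxidative muscle, stood at 7.05, 5.07 and 6.23 in wild type and at 17.6, 15.8 and 12.3 FPKM in knockout (log2 difference 1.19, limma adjusted p = 0.0194). Tfam, which maintains mitochondrial DNA, stood at 16.1, 15.0 and 14.4 in wild type and at 22.2, 26.0 and 23.7 FPKM in knockout (log2 difference 0.63, limma adjusted p = 0.0365). All knockout libraries were above wild type in both. Esrrg passed only without wild-type library 1 or knockout library 3, and its limma adjusted p was 0.0636 to 0.08 in the other 4 such fits. Tfam missed 0.05 in each of the 6 fits without 1 library (limma adjusted p 0.0697 to 0.131).

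Immediate early and heat shock genes, which respond soon after exercise, were read at 2 h after the last bout. None of 24 immediate early genes passed limma (3 at an unadjusted p under 0.05, median -0.17), and none of 21 heat shock genes did (2 at an unadjusted p under 0.05, median -0.16). Over all genes, 2006 of 10688 had such an unadjusted p. Atf3 stood at 250.5, 8.57 and 25.9 in wild type and at 54.6, 30.7 and 16.2 FPKM in knockout. Wild-type library 1 was far above the rest, and the groups overlapped (log2 difference -0.36, limma adjusted p = 0.888). Dusp1 differed by -0.28 and Hspa8 by -0.10, and Cryab stood at 1463, 618 and 479 in wild type and at 752, 465 and 477 FPKM in knockout, where wild-type library 1 was again the highest (log2 difference -0.46, limma adjusted p = 0.578). In the oxidant defence list 1 of 27 genes rose, Gstm2 (median 0.23), and the abundant Gpx4 and Prdx1 differed by 0.39 and 0.01 without passing.

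The list of 19 clock genes had a median difference of -0.11, and none of them rose. Tef, a clock output factor, measured 65.3 ± 7.63 (wild type) and 82.3 ± 15.5 FPKM (knockout) and did not pass (log2 difference 0.32, limma adjusted p = 0.344).

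Of 16 contractile genes of fast fibres 2 fell and 0 rose, and 7 lay lower without overlap, beside 12.7% of all genes. Without knockout library 3 these were 9 genes and 18.4%, the median was -0.34, and no gene of the list passed. The list's median of -0.33 shrank to -0.06 under quantile normalization. Myl1, a light chain of fast myosin, stood at 15928, 14776 and 15229 in wild type and at 8509, 7445 and 7756 FPKM in knockout. Every knockout library was far under the lowest wild-type value (log2 difference -0.96, limma adjusted p = 0.0145). Mybpc2, the fast myosin-binding protein C, stood at 1533, 1592 and 1242 in wild type and at 851, 754 and 911 FPKM in knockout, without overlap (log2 difference -0.79, limma adjusted p = 0.0341). Myl1 passed only without knockout library 1, and its limma adjusted p was 0.0571 to 0.08 in the other 5 such fits. Mybpc2 missed 0.05 in each of the 6 fits without 1 library (limma adjusted p 0.0659 to 0.131).

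In the slow fibre list 1 of 14 genes fell and 0 rose, with a median of -0.23. That median was 0.29, -0.51 and -0.08 in knockout libraries 1, 2 and 3, so the libraries of 1 genotype pointed in different directions. Casq2, the slow and cardiac calsequestrin that buffers calcium, stood at 28.3, 29.2 and 24.6 in wild type and at 13.5, 17.0 and 11.6 FPKM in knockout (log2 difference -0.93, limma adjusted p = 0.0292). Mybpc1 differed by 0.37 and Actn2 by 0.43 without passing. At the neuromuscular junction 1 of 13 genes fell (median 0.15). Chrnb1, a subunit of the acetylcholine receptor, stood at 16.9, 15.4 and 15.3 in wild type and at 9.39, 7.40 and 6.64 FPKM in knockout, with all knockout libraries lower (log2 difference -0.95, limma adjusted p = 0.0232), and Prkar1a differed by 0.23. Casq2 passed only without knockout library 2, and its limma adjusted p was 0.078 to 0.121 in the other 5 such fits. Chrnb1 passed only without knockout library 1, and its limma adjusted p was 0.0779 to 0.088 in the other 5 such fits.

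Des, which encodes the intermediate filament desmin, was the only gene of 10 myogenic genes to pass. It stood at 631, 683 and 505 in wild type and at 1021, 925 and 1099 FPKM in knockout, higher in every knockout library (log2 difference 0.75, limma adjusted p = 0.0432). Myf6, a myogenic factor of mature fibres, measured 175 ± 94.2 (wild type) and 179.9 ± 22.2 FPKM (knockout) (log2 difference 0.16, limma adjusted p = 0.834). In the atrophy and FoxO list 1 of 16 genes rose, Cdkn1a (median 0.30). Trim63, the ubiquitin ligase of atrophy, stood at 611, 236 and 259.7 in wild type and at 600.2, 436 and 459 FPKM in knockout, and wild-type library 1 was the highest of all 6 (log2 difference 0.56, limma adjusted p = 0.418). In the autophagy and lysosome list 1 of 22 rose (median 0.15). Ctsl, a lysosomal protease, stood at 32.9, 30.9 and 36.5 in wild type and at 75.6, 54.0 and 51.3 FPKM in knockout, without overlap (log2 difference 0.81, limma adjusted p = 0.0452). The abundant Ctsd and Pink1 differed by 0.29 and -0.18 and did not pass. Among 14 genes linked to p53 and growth arrest, 2 rose and 0 fell (median 0.31), where 1.22% and 1.5% of all genes did. The 2 were Cdkn1a, also on the atrophy list, and Phlda3, an inhibitor of AKT. Phlda3 stood at 106, 83.2 and 119 in wild type and at 195, 158 and 222 FPKM in knockout (log2 difference 0.89, limma adjusted p = 0.0442). Des, Ctsl and Phlda3 missed 0.05 in each of the 6 fits without 1 library, with limma adjusted p from 0.0765 to 0.154.

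**Figure D3:**
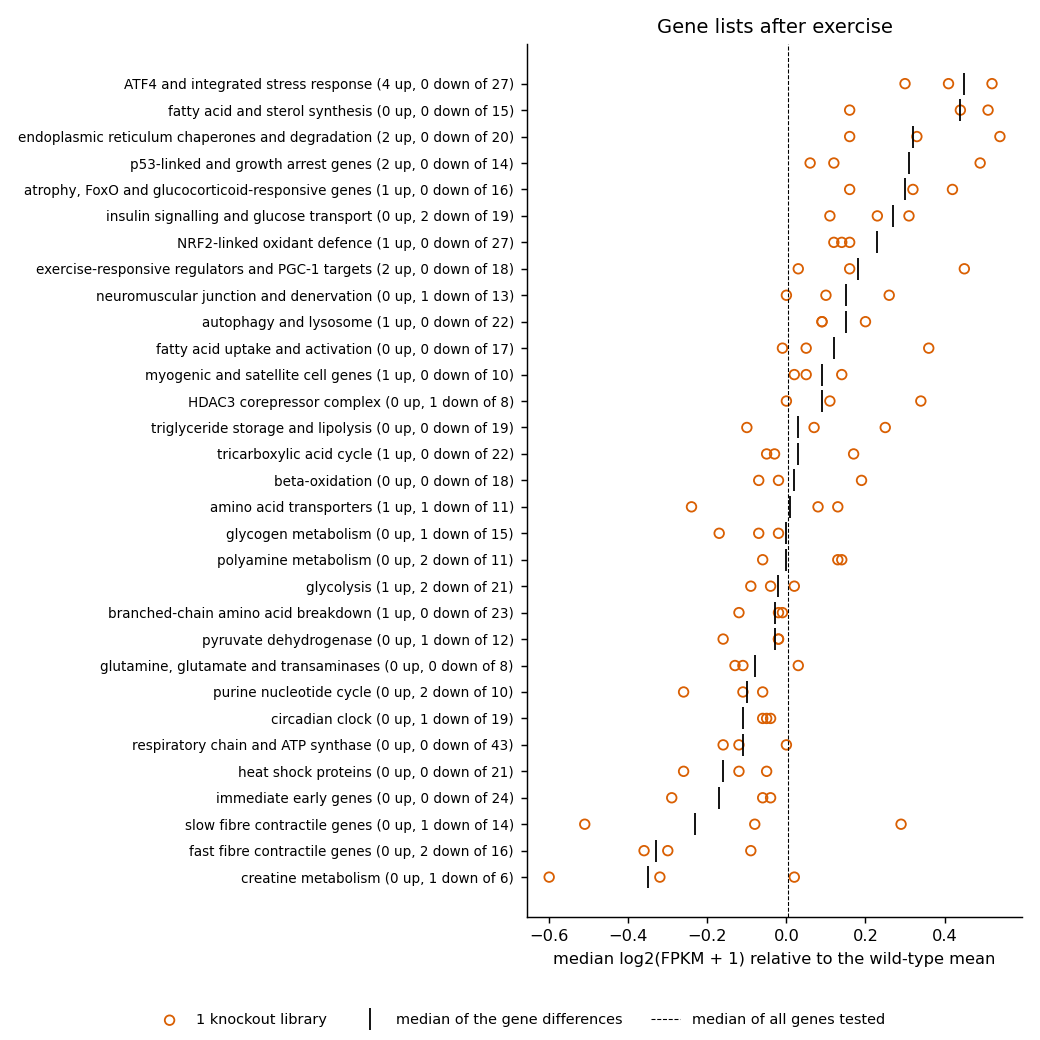
Median log2(FPKM + 1) of each gene list relative to the wild-type mean, for each of the 3 knockout libraries (open points), with the median of the gene differences (bars) and of all 10688 genes (dashed line). The ATF4 list is above 0 in all 3 knockout libraries (0.30 to 0.52), as are several others, such as the endoplasmic reticulum list (0.16 to 0.54). The slow fibre list spans -0.51 to 0.29.

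Of the markers of macrophages and other leukocytes, 14 were tested, 2 rose and 0 fell, and 9 lay higher without overlap, beside 12.2% of all genes. The list's median was 0.68, and 0.45, 0.79 and 0.96 in knockout libraries 1, 2 and 3. Without knockout library 3 again 9 lay higher without overlap, beside 17.9% of all genes, the median was 0.58, and no marker passed. Ptprc, Cd68, Adgre1 and Itgam were members only through their knockout mean, and each of them is among the 9 in both counts. The others without overlap were Csf1r, Lyz2, Mrc1, H2-Aa and Cd74. Of the 10 markers with 1 FPKM or more in both genotypes 1 rose, with a median of 0.73. Cd68, a lysosomal protein of macrophages, stood at 1.49, 0.746 and 0.427 in wild type and at 5.27, 2.60 and 4.91 FPKM in knockout (log2 difference 1.48, limma adjusted p = 0.0418). Mrc1, the mannose receptor, stood at 2.67, 2.69 and 3.03 in wild type and at 6.05, 8.42 and 6.82 FPKM in knockout (log2 difference 1.08, limma adjusted p = 0.0172). All 15 markers in the table summed to 110.7, 101.3 and 63.95 FPKM in wild type and to 132.5, 172.0 and 201.0 FPKM in knockout, none at 0. Mrc1 passed only without knockout library 1, and its limma adjusted p was 0.0533 to 0.08 in the other 5 such fits. Cd68 missed 0.05 in each of the 6 fits without 1 library (limma adjusted p 0.0533 to 0.136). Ctsl and the other lysosomal genes above are also expressed by macrophages, and the part of these cells in those results was not tested.

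The neutrophil markers S100a8 and S100a9 were high in knockout library 3 alone. S100a8 stood at 1.24, 0.840 and 6.20 in wild type and at 0.991, 1.26 and 156 FPKM in knockout, and S100a9 at 0.716, 0.486 and 6.41 in wild type and at 1.15, 2.19 and 148 FPKM in knockout. None of 7 neutrophil markers tested passed limma (1 at an unadjusted p under 0.05). Ly6g, Mpo and Camp were at 0 in every library but knockout library 3. Retnlg and Ngp were above 0 only there and in wild-type library 2. The erythroid markers summed to 203.8, 172.4 and 57.6 FPKM in wild type and to 117.9, 97.44 and 284.7 FPKM in knockout, again highest in knockout library 3. None of 4 tested passed, with Hbb-b1 at 168, 147 and 36.8 in wild type and at 98.1, 86.9 and 219 FPKM in knockout and Hba-a1 at 29.9, 21.2 and 17.2 in wild type and at 15.8, 7.09 and 54.7 FPKM in knockout.

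By the medians of their tested markers, other cell types were closer between genotypes. Summed over the list, smooth muscle and pericyte markers were higher in every knockout library, but most of that sum was Des. Rgs5, the next largest, went the other way. It stood at 183, 171 and 184 in wild type and at 148, 135 and 120 FPKM in knockout. The sum therefore gives the direction of Des and not that of the other markers on the list. Summed Schwann cell and nerve markers were lower in every knockout library. No fibroblast and matrix marker of 13 passed (median -0.26, 1 at an unadjusted limma p under 0.05), no endothelial marker of 10 (-0.16, 0 at that p), no adipocyte marker of 6 (0.05, 0), no Schwann cell marker of 4 (-0.25, 2) and no satellite cell marker of 2 (-0.20, 1). Of 7 smooth muscle and pericyte markers, Des alone rose, a gene that the muscle fibre list also holds, and the median was -0.21. The matrix protein Dcn differed by 0.23 and Sparc by -0.25, Pecam1 by -0.34, Egfl7 by -0.28 and Rgs5 by -0.42. The fat marker Cfd differed by -0.11, the nerve markers Pmp22 and Mbp by -0.38 and 0.14, and Cdh15 and Vcam1 by -0.66 and 0.26. In the muscle fibre list Des alone passed among 12. Its abundant Tnnt3 stood at 19709, 19003 and 18885 in wild type and at 14624, 15989 and 15781 FPKM in knockout (log2 difference -0.31, limma adjusted p = 0.219), and the list's median of -0.07 became 0.16 under quantile normalization.

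**Figure D4:**
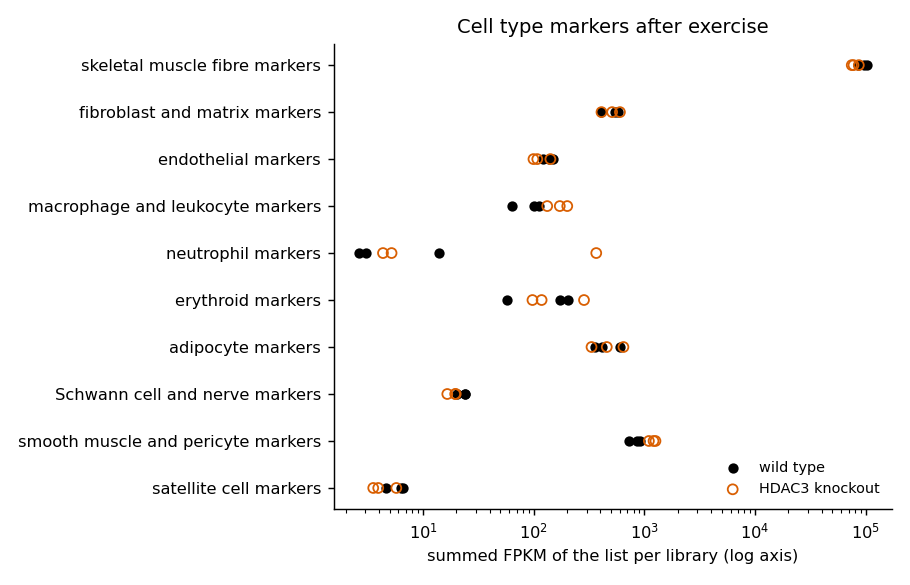
Summed FPKM of each marker list per library on a log axis; filled points are wild type, open points knockout. Macrophage and leukocyte markers do not overlap between genotypes (63.95 to 110.7 against 132.5 to 201.0 FPKM). Neither do smooth muscle and pericyte markers (728.8 to 903.3 against 1098 to 1259 FPKM) or Schwann cell and nerve markers (20.26 to 23.91 against 16.57 to 19.76 FPKM). Most of the smooth muscle and pericyte sum is Des, and Rgs5, the next largest of that list, is lower in every knockout library. In neutrophil markers 1 knockout library stands apart at 367.3 FPKM.

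Resting muscle of the same genotypes was then set beside exercised muscle. On the same 10688 genes at rest, limma called 381 (3.56%), 238 higher and 143 lower. Of the 130 genes that rose after running, 124 (95.4%) were also higher in knockout at rest, as were 50.3% of all genes, and 62 (47.7%) passed there. Of the 160 that fell, 156 (97.5%) were lower at rest, as were 49.6% of all genes, and 64 (40.0%) passed there. Of the calls at rest, these were 26.1% of the 238 higher and 44.8% of the 143 lower ones. None passed at rest in the opposite direction. Across all 10688 genes the difference after running and the difference at rest had a Pearson r of 0.55, which describes genes and not replicates. Without knockout library 3, 17 of the 18 genes that rose and 33 of the 33 that fell had the same sign at rest, and r was 0.53. Without wild-type library 2 at rest, which is described below, 124 of the 130 and 159 of the 160 did, and r was 0.55. The 2 conditions share no library.

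The test of the difference between these effects called no gene. limma gave an interaction contrast over all 12 libraries, with 0 genes at an adjusted p at or under 0.05 and 534 (5%) at an unadjusted p under 0.05. Mthfd2 differed by 3.48 after running and by 3.74 at rest, and the change between them was -0.25, SE 0.31, limma adjusted p = 0.934. Psat1 differed by 1.72 after running and 0.82 at rest (change 0.90, SE 0.37, limma adjusted p = 0.917). Rian differed by -2.36 and -1.17 (change -1.19, SE 0.59, limma adjusted p = 0.917). Glul, which did not pass after running, differed by 0.17 there and by 1.48 at rest (change -1.31, SE 0.45, limma adjusted p = 0.917). Genes that passed in only 1 condition were therefore not shown to respond differently to running.

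The 5 genes of lowest p in that contrast were Rnaset2a, Ccr2, Bcl2l1, Tcirg1 and Zranb2. Ccr2, the chemokine receptor of monocytes, stood after running at 1.43, 1.68 and 1.18 in wild type and at 3.03, 3.18 and 3.11 FPKM in knockout and rose (log2 difference 0.76, limma adjusted p = 0.039). At rest it measured 2.30 ± 0.374 (wild type) and 1.80 ± 0.245 FPKM (knockout), and the change between conditions was 1.00, SE 0.19, limma adjusted p = 0.917. Tcirg1, a proton pump subunit of lysosomes and macrophage-lineage cells, differed by 0.50 after running and by -0.81 at rest (change 1.31, SE 0.29, limma adjusted p = 0.917). Bcl2l1, which protects cells from apoptosis, differed by -0.24 and 0.62 (change -0.86, SE 0.18, limma adjusted p = 0.917). Zranb2, a splicing protein, differed by -0.22 and 0.26, and Rnaset2a, which has a near-identical copy, by 0.25 and 1.88. Ccr2 missed 0.05 in each of the 6 fits without 1 library (limma adjusted p 0.0913 to 0.114).

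The macrophage and leukocyte markers had median differences of opposite sign in the 2 conditions. Their median difference was 0.68 after running and -0.22 at rest, and 9 of 14 had an unadjusted p under 0.05 in the interaction contrast, where 5% of all genes did, although none passed after adjustment. Without knockout library 3 after running, 9 of 14 did, beside 5.78% of all genes. The 14 include Ptprc, Cd68, Adgre1 and Itgam, members only through their knockout mean after running, and this count was not repeated without them. The 15 markers summed at rest to 143.2, 129.0 and 159.4 FPKM in wild type and to 154.3, 101.7 and 111.1 FPKM in knockout. Wild type after running (63.95 to 110.7 FPKM) was therefore listed below wild type at rest, but the tables were normalized separately and levels were not tested across them. Resting wild-type library 2 held 555.1 FPKM of neutrophil markers, against 3.69 to 10.08 FPKM in the other 5 resting libraries.

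**Figure D5:**
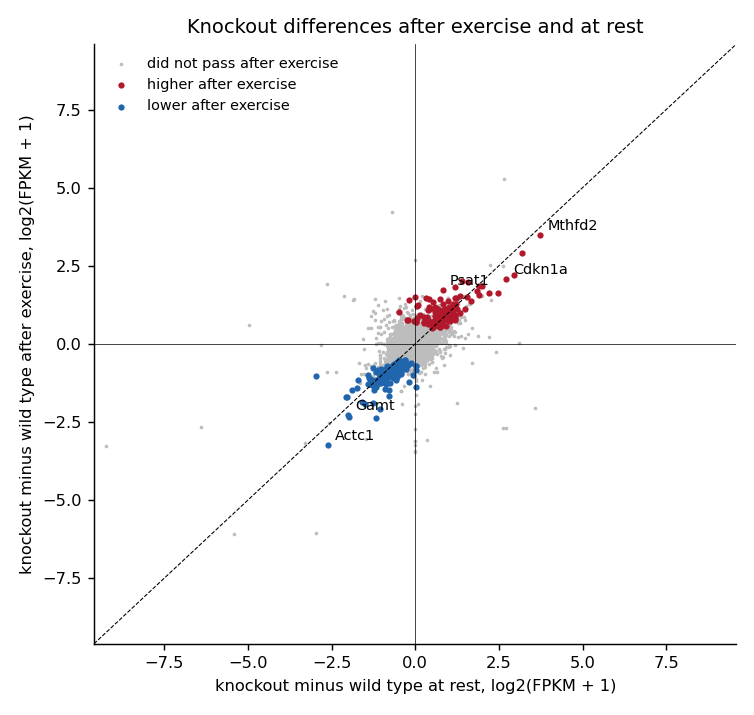
Difference of log2(FPKM + 1), knockout minus wild type, at rest against after exercise, for 10688 genes; red and blue are the 130 and 160 genes that passed after exercise, and the dashed line marks equal differences. Of these genes 124 and 156 have the same sign at rest, and the grey points far from the line did not pass after exercise.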

How the data were processed

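RNA-seq of quadriceps muscle was deposited as 1 table per condition, and the exercise table (6 libraries) was compared by genotype; 4 GRO-seq libraries were not analysed here. The authors deposited FPKM per library, made with TopHat2, Bowtie, Cuffdiff and HOMER with mm9, per the submitters' processing notes; versions, annotation and strandedness are not given in the sources used here. The p-values and q-values in the deposited tables are the authors' own comparison of genotypes. Which table held which condition was taken from its name.

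Members were tested with limma 3.58.1 (R 4.3.3) on log2(FPKM + 1), a two-sided test whose variances are shrunk towards a trend on the mean; p was adjusted by Benjamini-Hochberg with a threshold of 0.05. The same fit at rest, whole reads recovered from FPKM steps and fitted with voom weights, and counts without knockout library 3 or over genes of 1 FPKM or more in both genotypes, were added after seeing the data. The limma step was tested on simulated data. Members and gene lists were chosen with earlier results of these data known. Named genes were Hdac3, the 12 largest rises and 12 largest falls that passed (without predicted, small RNA and antisense loci), up to 4 passing members per list by lowest p, or the 2 most abundant where under 2 passed, and the 5 lowest p in the interaction; a few of these are not reported here. Alternatives were other pseudocounts, filters, scalings, variance models, a replicate block, single libraries left out and the authors' q.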

Additional observations from a re-analysis of the deposited data

How the results depend on the processing

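The 290 calls after exercise came to between 233 and 348 with pseudocounts of 0.1 or 0.5, a minimum of 1 FPKM in every library, median centring, quantile normalization, limma without the trend, voom weights on whole reads, or the authors' q required as well. They fell to 109 with no filter on low values, where 16906 genes were tested, and rose to 865 by the authors' q alone. With 1 library left out they ranged from 44 to 58, with fewer samples in the fit. Replicate numbers did not pair the samples (correlations of same-numbered deviations 0.02, -0.25 and -0.09), and the replicate block gave 111 calls, 94 of them shared; the cause was not tested. The interaction called 0 genes in each setting except without wild-type replicate 3, where it called 1, Ndufs5 (range 0 to 1). Of the 52 called genes chosen by rule, all kept their sign in every setting. Their libraries did not overlap between genotypes, so this was fixed in advance wherever the values were not rescaled or weighted. The replicate block ended 19 calls, no filter 26, leaving out a library 30 to 34, limma without the trend 8, and voom weights 2 of 34. Depth limits the low genes most: a member of 1 to 2 FPKM rested on a median of 17 reads per library.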

Other observations

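Several groups of genes outside the lists held more than 1 called gene. They were picked after their values were seen and carry no test as groups. Snrpn and Snhg14, from an imprinted locus other than that of Rian, fell after running. Snrpn, a splicing protein gene read from the paternal copy, stood at 8.80, 11.2 and 8.67 in wild type and at 2.73, 4.43 and 3.05 FPKM in knockout (log2 difference -1.27, limma adjusted p = 0.0188). Snhg14, the long RNA that continues from the same locus, stood at 3.55, 3.10 and 4.46 in wild type and at 0.713, 1.13 and 0.983 FPKM in knockout (log2 difference -1.27, limma adjusted p = 0.0161). It was a member only through its wild-type mean. Neither gene's libraries overlapped between genotypes. Meg3, from the cluster of Rian, stood at 4.98, 9.99 and 5.37 in wild type and at 2.00, 3.90 and 2.06 FPKM in knockout and did not pass (log2 difference -1.07, limma adjusted p = 0.0974). The imprinted Peg3, H19 and Igf2 did not pass either, with log2 differences of -0.39, 0.38 and 0.18. Snrpn passed only without knockout library 2, and its limma adjusted p was 0.0533 to 0.08 in the other 5 such fits. Snhg14 passed only without wild-type library 2, and its limma adjusted p was 0.053 to 0.0584 in the other 5 such fits.

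Several genes of calcium handling fell. S100a1, a calcium sensor of muscle, stood at 144, 142 and 149.8 in wild type and at 57.6, 60.3 and 62.6 FPKM in knockout, with tight groups far apart (log2 difference -1.26, limma adjusted p = 0.00188). Stac3, which couples the calcium channel to excitation, stood at 66.7, 70.8 and 63.6 in wild type and at 26.3, 31.2 and 37.0 FPKM in knockout (log2 difference -1.08, limma adjusted p = 0.0158). Cav3, the caveolin of muscle, stood at 30.3, 35.4 and 30.9 in wild type and at 15.9, 16.4 and 18 FPKM in knockout (log2 difference -0.90, limma adjusted p = 0.0145). Calm3 stood at 119.6, 123.1 and 113 in wild type and at 34.5, 46.2 and 57.3 FPKM in knockout (log2 difference -1.37, limma adjusted p = 0.015), whereas Calm2, which encodes the same calmodulin protein, differed by -0.41 without passing. S100a1 passed in all 6 fits that each left out 1 library. Stac3 passed only without knockout library 1 or 3, and its limma adjusted p was 0.0533 to 0.0714 in the other 4 such fits. Cav3 passed only without wild-type library 1 or knockout library 3, and its limma adjusted p was 0.0514 to 0.0646 in the other 4 such fits. Calm3 passed only without knockout library 1 or 3, and its limma adjusted p was 0.0532 to 0.0712 in the other 4 such fits.

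Lysosomal and leukocyte genes outside the lists rose. Lgmn, a lysosomal protease, stood at 12.7, 11.5 and 14.5 in wild type and at 35.4, 31.8 and 31.3 FPKM in knockout (log2 difference 1.29, limma adjusted p = 0.00454). Ctss stood at 2.69, 3.14 and 1.35 in wild type and at 7.10, 6.46 and 7.15 FPKM in knockout (log2 difference 1.26, limma adjusted p = 0.0308), and Grn at 6.12, 5.08 and 4.38 in wild type and at 12.1, 8.77 and 9.46 FPKM in knockout (log2 difference 0.84, limma adjusted p = 0.0444). Mpeg1, a pore protein of macrophages, stood at 0.853, 0.834 and 1.02 in wild type and at 2.01, 2.23 and 1.94 FPKM in knockout (log2 difference 0.69, limma adjusted p = 0.048). It was a member only through its knockout mean. At rest the log2 differences were 1.23 for Lgmn but 0.09 for Ctss, 0.07 for Grn and 0.02 for Mpeg1. The summed macrophage markers moved the same way after running (63.95 to 110.7 FPKM in wild type, 132.5 to 201.0 FPKM in knockout), and their part in these rises was not tested. Lgmn passed in all 6 fits that each left out 1 library. Ctss, Grn and Mpeg1 missed 0.05 in each of the 6 fits without 1 library, with limma adjusted p from 0.0507 to 0.15.

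Enzymes that modify lysines on histones and other proteins went both ways. Setd8, which methylates histone H4, stood at 39.6, 38.5 and 39.0 in wild type and at 17.5, 16.3 and 16.9 FPKM in knockout, nearly level within each genotype (log2 difference -1.16, limma adjusted p = 0.00255). Smyd2, a lysine methyltransferase, fell from 155 to 82.6 FPKM (log2 difference -0.90, limma adjusted p = 0.0194), and the histone acetyltransferase Hat1 rose from 12.9 to 24.7 FPKM (log2 difference 0.88, limma adjusted p = 0.0221). Setd8 passed in all 6 fits that each left out 1 library. Smyd2 passed only without wild-type library 1, and its limma adjusted p was 0.0603 to 0.08 in the other 5 such fits. Hat1 missed 0.05 in each of the 6 fits without 1 library (limma adjusted p 0.0505 to 0.088).

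Srrm4os, a member only through its knockout mean, rose from 0.313 to 8.92 FPKM (log2 difference 2.91, limma adjusted p = 0.000721). Srrm4 overlaps it on the opposite strand, and without strand in the counting the reads of the pair cannot be told apart. Ndufs5, a subunit of complex I, was listed at 0.124, 0.0141 and 114 FPKM in wild type and at 136.8, 82.1 and 72.1 FPKM in knockout, so 2 wild-type libraries were near 0 for a gene that every muscle cell uses. Snora3, Mir6340 and Mir6363, short RNAs with the largest differences of all (5.29, -6.08 and -6.05), were at 0 FPKM in 2 or more libraries and did not pass.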
